A study of Mus musculus with 33 samples.

Results

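Zinc metalloproteases and the inhibitor Timp2 were followed through 11 sorted populations of mouse bone marrow on the way to neutrophils and monocytes. The genes are Mmp8, Mmp9, Mmp25, Mmp14, Adam8, Adam9, Adam10, Adam17 and Timp2, found by matching the Ensembl gene IDs of the deposited count table to their mouse symbols. They are 9 of 54752 features, and all 9 were among the 18198 genes that passed the filter on low counts. Mmp14 and Timp2 were close to the detection limit in most libraries. Among the other 7, Adam10 differed little between groups. Adam17 had a lower mean in preNeu than in Ly6C- GMP, a pair that was not tested, but its highest mean was in Ly6Chi monocytes. A name that ties all 9 to maturing neutrophils and monocytes therefore goes beyond the data.

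RNA was sequenced in bulk from cells sorted by flow cytometry. In 4 populations the mice had sepsis, 3 days after a mid-grade caecal ligation and puncture (CLP, an operation that lets gut bacteria into the abdomen): Ly6C- granulocyte-monocyte progenitors (Ly6C- GMP), proNeu1, proNeu2 and preNeu. The same 4 populations came from wild-type (WT) control mice and form the neutrophil path, in the order Ly6C- GMP, proNeu1, proNeu2 and preNeu. The monocyte path was sorted from control mice as well, through the common monocyte progenitor (cMoP) and a transitional pre-monocyte stage (TpMo) up to the Ly6Chi monocyte. Each of the 11 groups has 3 biological replicates. The labels give no strain, age or sex, mention no sham operation, and give no sepsis group on the monocyte path. The 4 sepsis groups and the stage comparisons use the same control libraries.

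Matrix metalloproteases (MMPs) cut collagen, gelatin and other proteins outside the cell, and neutrophils store several of them in granules made at different steps of maturation. ADAM proteases sit in the membrane and release the outer part of other membrane proteins, such as tumour necrosis factor, L-selectin and Notch receptors. Both families are made as inactive precursors, and TIMP proteins block the active forms.

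Mmp8 encodes neutrophil collagenase, a protease of the specific granules, and lies on chromosome 9 of GRCm38 from 7558456 to 7568485 on the plus strand. Mmp9 encodes gelatinase B, which names the gelatinase granules, on chromosome 2 from 164940780 to 164955850 on the plus strand. Mmp25, which encodes a lipid-anchored membrane MMP known as leukolysin, lies on chromosome 17 from 23628311 to 23645277 on the minus strand. Mmp14 encodes a transmembrane MMP that activates the precursor of Mmp2 together with Timp2, and lies on chromosome 14 from 54431612 to 54445364 on the plus strand. Adam8, a surface protease of granulocytes and monocytes, lies on chromosome 7 from 139978932 to 139992562 on the minus strand, and the membrane protease gene Adam9 on chromosome 8 from 24949611 to 25016927 on the minus strand. The sheddase gene Adam10 lies on chromosome 9 from 70678997 to 70780229 on the plus strand, and Adam17, which encodes the converting enzyme of tumour necrosis factor, on chromosome 12 from 21323509 to 21373632 on the minus strand. Timp2 lies on chromosome 11 from 118301069 to 118355740 on the minus strand. Every value is a sum over the exons of a whole gene, so no transcript form was told apart.

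RefSeq promoter windows on GRCm38.p6, from 250 bases before to 50 bases after the start site, were found for 7 of the 9 genes, and Mmp9 and Adam9 had no entry. The windows of Mmp8, Mmp25 and Adam8, which had higher levels in preNeu than in proNeu2 of control mice, are shown beside that of Adam10, whose level differed least between groups. They were searched on both strands for the letters TTGCNNAA (C/EBP), AGGAAG (PU.1 and other ETS factors), TTCNNNGAA (STAT) and TGANTCA (AP-1). Capitals mark matches to the C/EBP or ETS letters, read 5′ to 3′ on the strand of the gene.
Mmp8, chr9:7558179-7558478, plus strand: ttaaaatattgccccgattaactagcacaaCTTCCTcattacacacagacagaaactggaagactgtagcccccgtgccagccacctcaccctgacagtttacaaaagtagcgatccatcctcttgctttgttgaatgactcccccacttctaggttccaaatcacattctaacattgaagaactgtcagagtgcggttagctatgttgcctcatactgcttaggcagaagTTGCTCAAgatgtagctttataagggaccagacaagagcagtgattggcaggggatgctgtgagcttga
Mmp25, chr17:23645220-23645519, minus strand: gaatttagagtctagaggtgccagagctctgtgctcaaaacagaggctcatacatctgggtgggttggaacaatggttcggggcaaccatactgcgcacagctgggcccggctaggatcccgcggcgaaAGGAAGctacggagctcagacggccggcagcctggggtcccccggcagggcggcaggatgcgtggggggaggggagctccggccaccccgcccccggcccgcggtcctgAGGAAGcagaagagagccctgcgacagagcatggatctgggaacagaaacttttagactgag
Adam8, chr7:139992513-139992812, minus strand: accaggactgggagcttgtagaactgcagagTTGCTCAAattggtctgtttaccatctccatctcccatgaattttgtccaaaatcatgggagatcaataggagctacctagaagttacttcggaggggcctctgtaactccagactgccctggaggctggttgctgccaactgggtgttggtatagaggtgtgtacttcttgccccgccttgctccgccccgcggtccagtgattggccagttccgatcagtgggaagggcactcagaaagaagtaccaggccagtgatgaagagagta
Adam10, chr9:70678732-70679031, plus strand: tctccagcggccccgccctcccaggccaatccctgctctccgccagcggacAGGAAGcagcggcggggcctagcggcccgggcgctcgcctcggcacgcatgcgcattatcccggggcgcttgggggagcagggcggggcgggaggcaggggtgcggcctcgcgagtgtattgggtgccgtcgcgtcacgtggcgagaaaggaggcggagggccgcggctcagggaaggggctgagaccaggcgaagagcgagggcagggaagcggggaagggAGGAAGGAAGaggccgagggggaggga
The same letters, TTGCTCAA, matched C/EBP in Mmp8, from 19 bases before the start site, and in Adam8, from 219 bases before it. Of all 32851 RefSeq promoters of this length, 10.8% held a C/EBP match. Mmp8 also held the ETS letters on the opposite strand, and Mmp25 held them at 121 and 12 bases before the start site. Adam10 held the ETS letters 3 times, and 2 of these overlapped after the start site. The ETS letters occurred in 35.4% of all promoters. None of the 7 windows held a match to STAT or AP-1, which 8.3% and 7.81% of all promoters held. The share of G and C was 46.0% in Mmp8, 63.3% in Mmp25, 52.3% in Adam8 and 73.3% in Adam10, where the median of all promoters was 52.7%. A match to these letters is a description of the sequence, not a binding site.

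Totals ran from 5.52 to 40.0 megacounts per library. Of the 33 libraries, 5 held at most 6.78 megacounts (1 library each of proNeu1, preNeu, Ly6Chi monocyte, sepsis proNeu1 and sepsis preNeu), and the others held at least 17.2 megacounts. Values are CPM (counts scaled to the same library total), given by library in the order of replicates 1, 2 and 3 (numbers that name libraries and pair none), and a gene was called changed at an adjusted p below 0.05 by edgeR's quasi-likelihood test. The female transcript Xist was at 153 CPM or more in the 24 libraries of Ly6C- GMP, proNeu1, proNeu2 and preNeu from both conditions, and at most 1.40 CPM in the 9 libraries of cMoP, TpMo and Ly6Chi monocytes. The Y-linked Ddx3y was at most 0.725 CPM in those 24 libraries and at least 68.8 CPM in those 9. Any comparison between the paths (cMoP against Ly6C- GMP, preNeu against Ly6Chi monocyte) therefore also compares animals of different sex, and sex and path cannot be told apart. In bulk samples, fewer cells of a type and less RNA per cell cannot be told apart either.

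**Figure D1:**
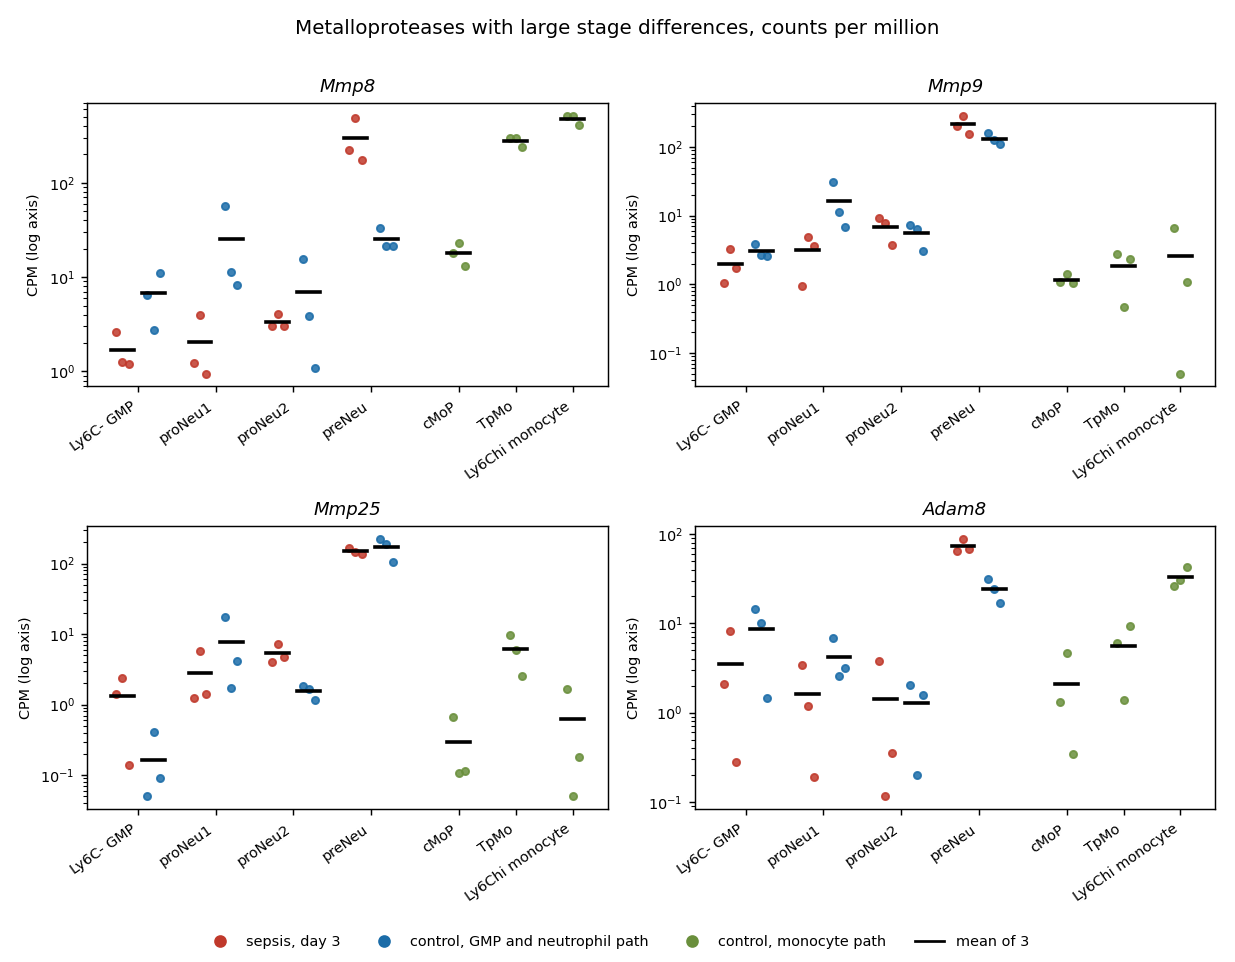
CPM on a log axis of Mmp8, Mmp9, Mmp25 and Adam8 in each of the 33 libraries, by group, with sepsis groups left of their control groups; points are libraries, bars are group means, and a library at 0 is drawn at 0.05 CPM. Mmp9 and Mmp25 lay between 106 and 286 CPM in preNeu libraries of both conditions and at most at 31.0 CPM in every other library, while Mmp8 was at 176 CPM or more in sepsis preNeu, TpMo and Ly6Chi monocytes.

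Along the neutrophil path of control mice, genes were called at the first step and the last. In proNeu1 against Ly6C- GMP, 2 of the 9 genes rose (Mmp9 and Mmp25) and 1 fell (Adam17), where 3.59% of all genes tested rose and 2.45% fell. In proNeu2 against proNeu1 edgeR's test called 0 of the 9, where 1.57% of all genes rose and 1.48% fell. At that step Mmp8, Mmp9 and Mmp25 had unadjusted p below 0.05, all with lower fitted values in proNeu2, and DESeq2 also called 0. In preNeu against proNeu2, 4 rose (Mmp8, Mmp9, Mmp25 and Adam8) and 0 fell, where 13.1% of all genes rose and 14.7% fell. The median log2 change of the 9 genes was 0.29 at that step, against 0 over all genes tested.

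On the monocyte path the changes were spread over its steps. In cMoP against Ly6C- GMP, 1 of the 9 genes rose (Adam9) and 1 fell (Adam17), where 9.22% of all genes rose and 7.96% fell. In TpMo against cMoP, 4 rose (Mmp8, Mmp25, Adam10 and Adam17) and 0 fell, where 9.52% of all genes rose and 8.56% fell. In Ly6Chi monocytes against TpMo, 1 rose (Adam9) and 1 fell (Mmp25), where 7.59% of all genes rose and 13.3% fell. Between the most mature populations, preNeu against Ly6Chi monocyte, 3 of the 9 were higher (Mmp9, Mmp25 and Adam10) and 3 were lower (Mmp8, Adam9 and Adam17), where 21.0% of all genes were higher and 18.9% lower.

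Mmp8, the collagenase, was low on the control neutrophil path and high at the end of the monocyte path. It had 6.46, 2.79 and 11.1 CPM in Ly6C- GMP. The level was 56.3, 11.3 and 8.26 CPM in proNeu1, 15.7, 3.90 and 1.08 CPM in proNeu2, and 33.1, 21.2 and 21.4 CPM in preNeu. Only preNeu and proNeu2 of these neighbouring stages had ranges that did not overlap, and the change there was 2.11 ± 0.66 on the log2 scale (SE, adjusted p = 0.0165). That call was lost without proNeu2 replicate 2 (1.83, adjusted p = 0.0899), proNeu2 replicate 3 (1.61, adjusted p = 0.0921) or preNeu replicate 1 (1.80, adjusted p = 0.0822), and without proNeu2 replicate 1 the change was 3.60. In proNeu2 against proNeu1, Mmp8 was called only without proNeu2 replicate 1, with a log2 change of -3.12 (adjusted p = 0.0224).

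On the monocyte path Mmp8 had 18.0, 23.2 and 13.1 CPM in cMoP, 302, 302 and 238 CPM in TpMo, and 512, 514 and 407 CPM in Ly6Chi monocytes. The 3 ranges were separate and in the order of the path. In TpMo against cMoP the log2 change was 4.15 ± 0.69 (adjusted p = 5.34e-05). In Ly6Chi monocytes against TpMo it was 0.78 ± 0.60 (adjusted p = 0.422) and not called, although a fit of those libraries alone called it. Mmp8 averaged 25.2 ± 6.83 CPM in preNeu and 478 ± 61.0 CPM in Ly6Chi monocytes (SD, n = 3 each), a log2 change of -4.02 ± 0.69 (adjusted p = 2.02e-05).

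Markers of neutrophil granules were mixed in the monocyte libraries. The summed level of the 7 specific granule markers was 2165 to 2423 CPM in cMoP, 26580.0 to 28740.0 CPM in TpMo and 43830.0 to 63790.0 CPM in Ly6Chi monocytes, and most of it was the lysozyme gene Lyz2, which monocytes also express. The neutrophil surface gene Cd177 was at 22.2 to 30.6 CPM in cMoP, 247 to 302 CPM in TpMo and 544.7 to 971 CPM in Ly6Chi monocytes, in the same order as Mmp8. Ltf, the lactoferrin gene of specific granules, was at 11.7 to 20.0 CPM in TpMo and 2.90 to 21.0 CPM in Ly6Chi monocytes, against 26630.0 CPM or more in every control preNeu library. The neutrophil surface gene Ly6g had 0 counts in all 3 Ly6Chi monocyte libraries and 0.116 to 0.554 CPM in TpMo. The part of these markers in the Mmp8 result was not tested.

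Mmp9 followed the other branch. Ly6C- GMP held 3.88, 2.70 and 2.62 CPM. The level was 31.0, 11.4 and 6.75 CPM in proNeu1, 7.34, 6.40 and 3.04 CPM in proNeu2, and 162, 125 and 109.8 CPM in preNeu. It had 1.07, 1.40 and 1.03 CPM in cMoP, 2.79, 0.465 and 2.31 CPM in TpMo, and 6.59, 0 and 1.09 CPM in Ly6Chi monocytes. Every preNeu library lay above every library of the other control groups. In preNeu against proNeu2 the log2 change was 4.79 ± 0.71 (adjusted p = 5.68e-06), and in preNeu against Ly6Chi monocyte it was 5.67 ± 0.75 (adjusted p = 4.04e-07). The second value was 7.75 without Ly6Chi monocyte replicate 1. The earlier change in proNeu1 against Ly6C- GMP, 2.48 ± 0.67 (adjusted p = 0.0227), was not called without proNeu1 replicate 1 (1.67, adjusted p = 0.186) or when any single Ly6C- GMP library was left out (adjusted p from 0.0649 to 0.0974).

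Mmp25, leukolysin, was also highest in preNeu. Ly6C- GMP held 0, 0.409 and 0.0903 CPM. The level was 17.4, 1.75 and 4.15 CPM in proNeu1, 1.81, 1.65 and 1.18 CPM in proNeu2, and 225, 188 and 106 CPM in preNeu. In preNeu against proNeu2 the log2 change was 7.04 ± 0.91 (adjusted p = 6.7e-07). The change in proNeu1 against Ly6C- GMP was 5.39 ± 1.05 (adjusted p = 0.00116), with ranges that did not overlap. It was 4.16 without proNeu1 replicate 1 (adjusted p = 0.0125) and 7.17 without Ly6C- GMP replicate 2. On the monocyte path Mmp25 peaked at the middle stage, with 0.660, 0.108 and 0.115 CPM in cMoP, 9.75, 6.04 and 2.54 CPM in TpMo, and 1.69, 0 and 0.181 CPM in Ly6Chi monocytes.

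The TpMo range of Mmp25 lay above both of its neighbours. The log2 change was 4.41 ± 0.97 in TpMo against cMoP (adjusted p = 0.00134), or 5.88 without cMoP replicate 1. In Ly6Chi monocytes against TpMo it was -2.92 ± 0.89 (adjusted p = 0.0174). The step to Ly6Chi monocytes was not called without TpMo replicate 1 (adjusted p = 0.0795), Ly6Chi monocyte replicate 2 (adjusted p = 0.0579) or Ly6Chi monocyte replicate 3 (adjusted p = 0.108), and the change was -5.47 without Ly6Chi monocyte replicate 1. Between the ends of the paths the preNeu level was 173 ± 60.9 CPM (SD, n = 3), and the log2 change against Ly6Chi monocytes was 7.99 ± 0.98 (adjusted p = 1.01e-07), or 10.58 without Ly6Chi monocyte replicate 1.

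The library proNeu1 replicate 1 was the highest of its group for Mmp8, Mmp9, Mmp25, Mmp14, Adam8, Adam9 and Adam17. It was 1 of the 5 shallow libraries. Its summed level of the 7 specific granule markers was 5589 CPM, against 2875 to 3188 CPM in the other proNeu1 libraries. The 8 mature neutrophil markers summed to 511.5 CPM there, against 445.4 and 427.5 CPM. Among them, Ly6g was at 5.01 CPM, against 2.58 and 2.00 CPM. The neutrophil gene Retnlg was at 9.73 CPM, against 2.96 and 2.55 CPM, while Il1r2 was lowest in this library. The part of these markers in the proNeu1 results was not tested.

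Mmp14, the transmembrane MMP, was called in none of the 13 comparisons. It had 1.75, 2.87 and 3.16 CPM in Ly6C- GMP and 3.83, 0.152 and 2.15 CPM in proNeu1. It was at most 1.14 CPM in every other control library and had 0 counts in 11 of the 33 libraries. In TpMo all 3 libraries had 0 counts, which allows up to 0.139 to 0.174 CPM at 3 counts per library (counting error only). In cMoP against Ly6C- GMP DESeq2 called it lower (adjusted p = 0.0228). The mean sepsis effect was called without control proNeu2 replicate 3 (adjusted p = 0.0495) or sepsis proNeu2 replicate 2 (adjusted p = 0.0337). The gene of its partner Mmp2, named after its values were seen, had its highest group mean in sepsis proNeu2, at 6.28 ± 1.68 CPM (SD, n = 3).

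Adam8 was high at the end of both paths. Ly6C- GMP held 14.3, 10.1 and 1.45 CPM. The level was 6.93, 2.54 and 3.13 CPM in proNeu1, 2.05, 0.200 and 1.57 CPM in proNeu2, and 31.2, 24.4 and 17.0 CPM in preNeu. It had 1.32, 4.63 and 0.345 CPM in cMoP, 6.09, 1.40 and 9.23 CPM in TpMo, and 26.3, 30.3 and 42.7 CPM in Ly6Chi monocytes. The most mature group lay above all earlier stages on both paths. Its log2 change was 4.48 ± 1.11 in preNeu against proNeu2 (adjusted p = 0.00267). In Ly6Chi monocytes against TpMo it was 2.56 ± 1.00 (adjusted p = 0.0699), which missed the threshold although the ranges were separate, and a fit of those libraries alone called it.

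**Figure D2:**
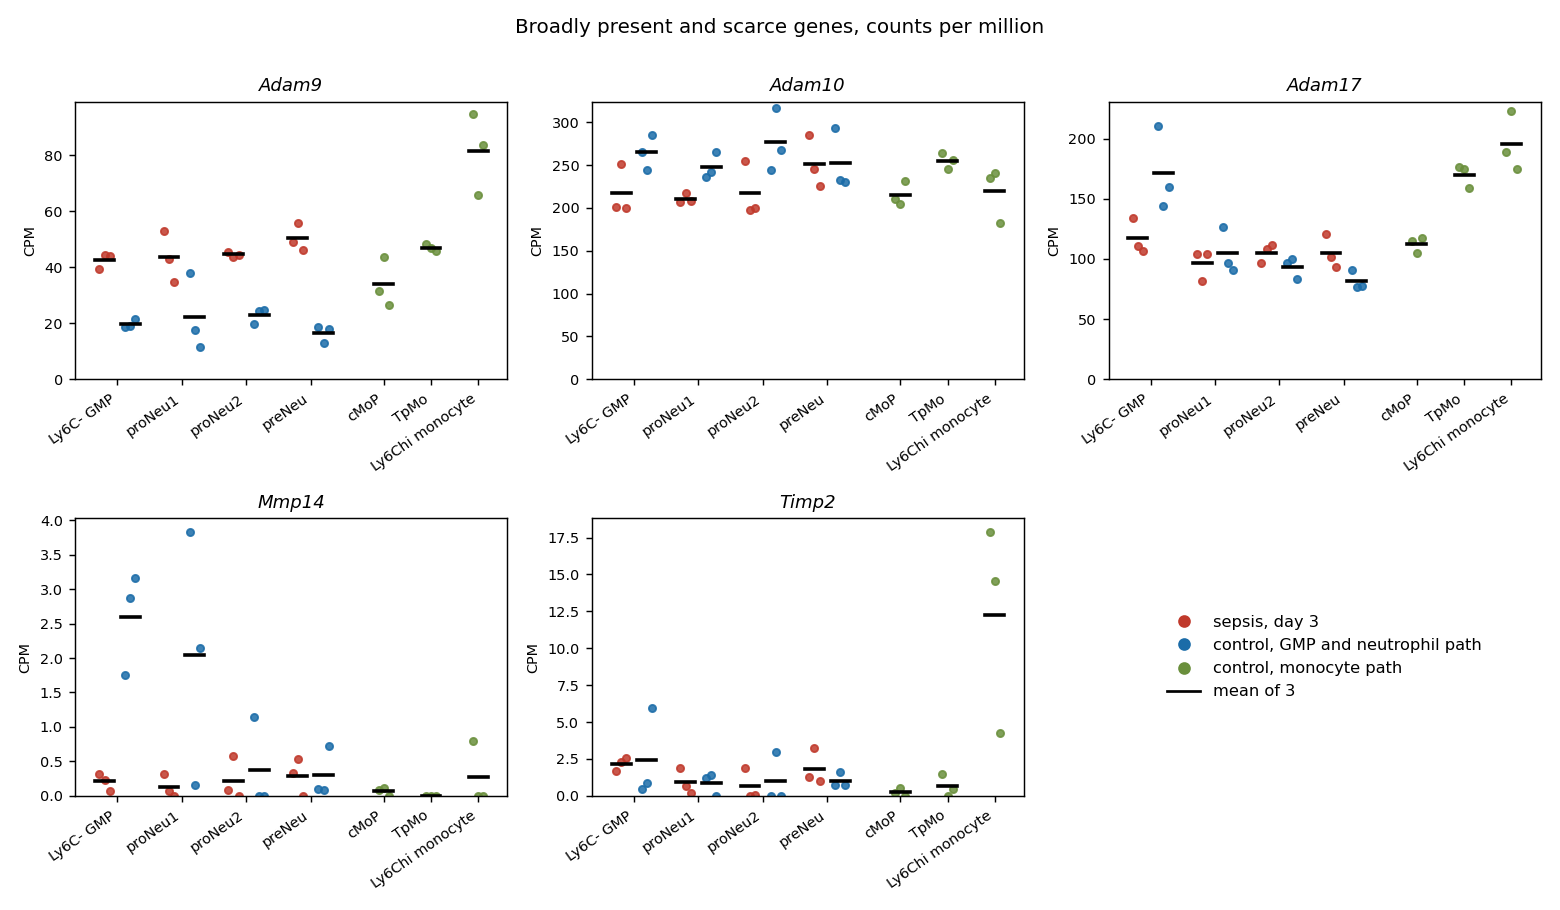
CPM on linear axes from 0 of Adam9, Adam10, Adam17, Mmp14 and Timp2 in each of the 33 libraries, by group, with sepsis groups left of their control groups; points are libraries and bars are group means. Adam10 lay between 183 and 317 CPM in every library, Adam9 had higher means in the 4 sepsis groups than in their controls, and Mmp14 and Timp2 were near 0 in most groups.

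Adam9, a membrane protease found in many cell types, was called higher at the first and last steps of the monocyte path and at no step of the control neutrophil path. Ly6C- GMP held 18.5, 19.0 and 21.5 CPM. Later levels were 37.8, 17.5 and 11.4 CPM in proNeu1, 19.6, 24.2 and 24.8 CPM in proNeu2, and 18.6, 13.0 and 17.8 CPM in preNeu. It had 31.5, 43.7 and 26.6 CPM in cMoP, 48.1, 46.8 and 45.6 CPM in TpMo, and 94.9, 65.8 and 83.5 CPM in Ly6Chi monocytes. The ranges on the monocyte path were separate from each other and from Ly6C- GMP. The log2 change was 0.82 ± 0.26 in cMoP against Ly6C- GMP (adjusted p = 0.0275) and 0.81 ± 0.26 in Ly6Chi monocytes against TpMo (adjusted p = 0.0245). In TpMo against cMoP it was called only in some alternatives, among them without cMoP replicate 2 (adjusted p = 0.0429). The change in cMoP was not called without Ly6C- GMP replicate 1 (adjusted p = 0.092), Ly6C- GMP replicate 2 (adjusted p = 0.0834) or cMoP replicate 2 (adjusted p = 0.18). The change at the last step was not called when any single TpMo library was left out (adjusted p from 0.0683 to 0.0755) or without Ly6Chi monocyte replicate 1 (adjusted p = 0.145). Between the ends of the paths, preNeu against Ly6Chi monocyte, the log2 change was -2.11 ± 0.27 (adjusted p = 2.3e-07), which remained called in every alternative run.

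Adam10 was the most even of the 9 genes. Its group means ran from 211 to 277 CPM. Each of the 10 pairs of groups next to each other in level had overlapping ranges, as also for Mmp14 and Timp2, so that count is no measure of evenness. Ly6C- GMP held 266, 244 and 286 CPM, proNeu1 236, 242 and 266 CPM, and proNeu2 245, 317 and 268 CPM. At the ends of the paths it had 293, 232 and 231 CPM in preNeu and 235, 241 and 183 CPM in Ly6Chi monocytes. The log2 change was 0.44 ± 0.15 in TpMo against cMoP (adjusted p = 0.0325), where TpMo had 264, 246 and 256 CPM and cMoP had 211, 205 and 231 CPM. In preNeu against Ly6Chi monocyte it was 0.40 ± 0.15 (adjusted p = 0.0278), with overlapping ranges. The first call was lost in 6 of 12 alternatives, with adjusted p from 0.0564 to 0.16. The second was lost in 6 of 12, among them without preNeu replicate 1 (adjusted p = 0.257), preNeu replicate 2 (adjusted p = 0.0552) and Ly6Chi monocyte replicate 3 (adjusted p = 0.105).

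Adam17, the converting enzyme of tumour necrosis factor, fell at the first step of both paths and rose again on the monocyte path. Ly6C- GMP held 210.2, 144 and 159.7 CPM. Later levels were 127, 96.8 and 90.4 CPM in proNeu1, 96.8, 99.6 and 83.0 CPM in proNeu2, and 90.6, 76.6 and 77.8 CPM in preNeu. It had 115, 105 and 118 CPM in cMoP, 177, 174 and 159 CPM in TpMo, and 189, 223 and 174 CPM in Ly6Chi monocytes. Both proNeu1 and cMoP lay wholly below Ly6C- GMP, and TpMo lay wholly above cMoP. The log2 change was -0.59 ± 0.16 in proNeu1 against Ly6C- GMP (adjusted p = 0.0202) and -0.57 ± 0.16 in cMoP against Ly6C- GMP (adjusted p = 0.0115). Without Ly6C- GMP replicate 1, the highest of its group, these changes were -0.43 (adjusted p = 0.18) and -0.40 (adjusted p = 0.111) and not called. Markers of other cells moved with both falls. The 6 eosinophil, basophil and mast cell markers summed to 103.2 to 166.0 CPM in proNeu1 and 14.4 to 27.4 CPM in cMoP, against 13250.0 to 20080.0 CPM in Ly6C- GMP. The 6 dendritic cell markers summed to 55.0 to 87.4 CPM in proNeu1 and 16.0 to 28.8 CPM in cMoP, against 2534 to 3657 CPM in Ly6C- GMP. Their part in the changes from Ly6C- GMP was not tested. The proNeu1 call was also lost without proNeu1 replicate 2 (adjusted p = 0.0577) or replicate 3 (adjusted p = 0.0803), and the cMoP call without cMoP replicate 2 (adjusted p = 0.0534).

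The later changes of Adam17 were called as follows. In TpMo against cMoP the log2 change was 0.79 ± 0.16 (adjusted p = 0.000474). Adam17 averaged 81.6 ± 7.76 CPM in preNeu and 196 ± 25.1 CPM in Ly6Chi monocytes (SD, n = 3 each), a log2 change of -1.05 ± 0.16 (adjusted p = 3.56e-06). Both calls remained in every alternative run.

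Timp2, the inhibitor, was called in none of the 13 comparisons. It was highest in Ly6Chi monocytes, with 17.9, 14.6 and 4.26 CPM, where TpMo had 1.51, 0 and 0.462 CPM. Every other library held at most 5.96 CPM, and 6 of the 33 had 0 counts. DESeq2 and a fit of the compared libraries alone called the difference between Ly6Chi monocytes and TpMo, and without proNeu2 replicate 2 preNeu was called higher than proNeu2 (adjusted p = 0.0463).

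Set side by side per kilobase of gene model, the leading protease differed between the ends of the paths. In control preNeu the levels were 51.3 ± 7.21 CPM per kb for Adam10, 37.4 ± 7.60 for Mmp9, 32.7 ± 11.5 for Mmp25, 11.4 ± 1.08 for Adam17, 10.4 ± 2.81 for Mmp8, 5.22 ± 1.53 for Adam8 and 4.00 ± 0.733 for Adam9 (SD, n = 3). In Ly6Chi monocytes they were 197 ± 25.2 CPM per kb for Mmp8, 44.8 ± 6.54 for Adam10, 27.3 ± 3.50 for Adam17, 19.8 ± 3.56 for Adam9, 7.13 ± 1.84 for Adam8, 3.14 ± 1.83 for Timp2, 0.723 ± 0.998 for Mmp9 and 0.118 ± 0.175 for Mmp25. Mmp8 thus stood well above Adam10 in monocytes and below it in control preNeu. In Ly6C- GMP the sheddases led, with 54.0 ± 4.26 CPM per kb for Adam10 and 23.9 ± 4.86 for Adam17, against 2.79 ± 1.71 for Mmp8.

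In sepsis, 1 gene rose in all 4 populations and another moved in opposite directions. In sepsis Ly6C- GMP against control, 1 of the 9 genes rose (Adam9) and 0 fell, where 10.3% of all genes tested rose and 7.42% fell. In sepsis proNeu1, 1 rose (Adam9) and 2 fell (Mmp8 and Mmp9), where 8.3% of all genes rose and 7.3% fell. In sepsis proNeu2, 1 rose (Adam9) and 0 fell, where 9.45% rose and 7.57% fell. In sepsis preNeu, 2 rose (Mmp8 and Adam9) and 0 fell, where 7.57% rose and 4.21% fell. For the mean of the 4 sepsis effects, 1 was higher (Adam9) and 1 lower (Adam10), where 19.6% of all genes were higher and 17.5% lower. A test of whether the 4 sepsis effects differ called 1 of the 9 (Mmp8), where it called 6.34% of all genes.

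**Figure D3:**
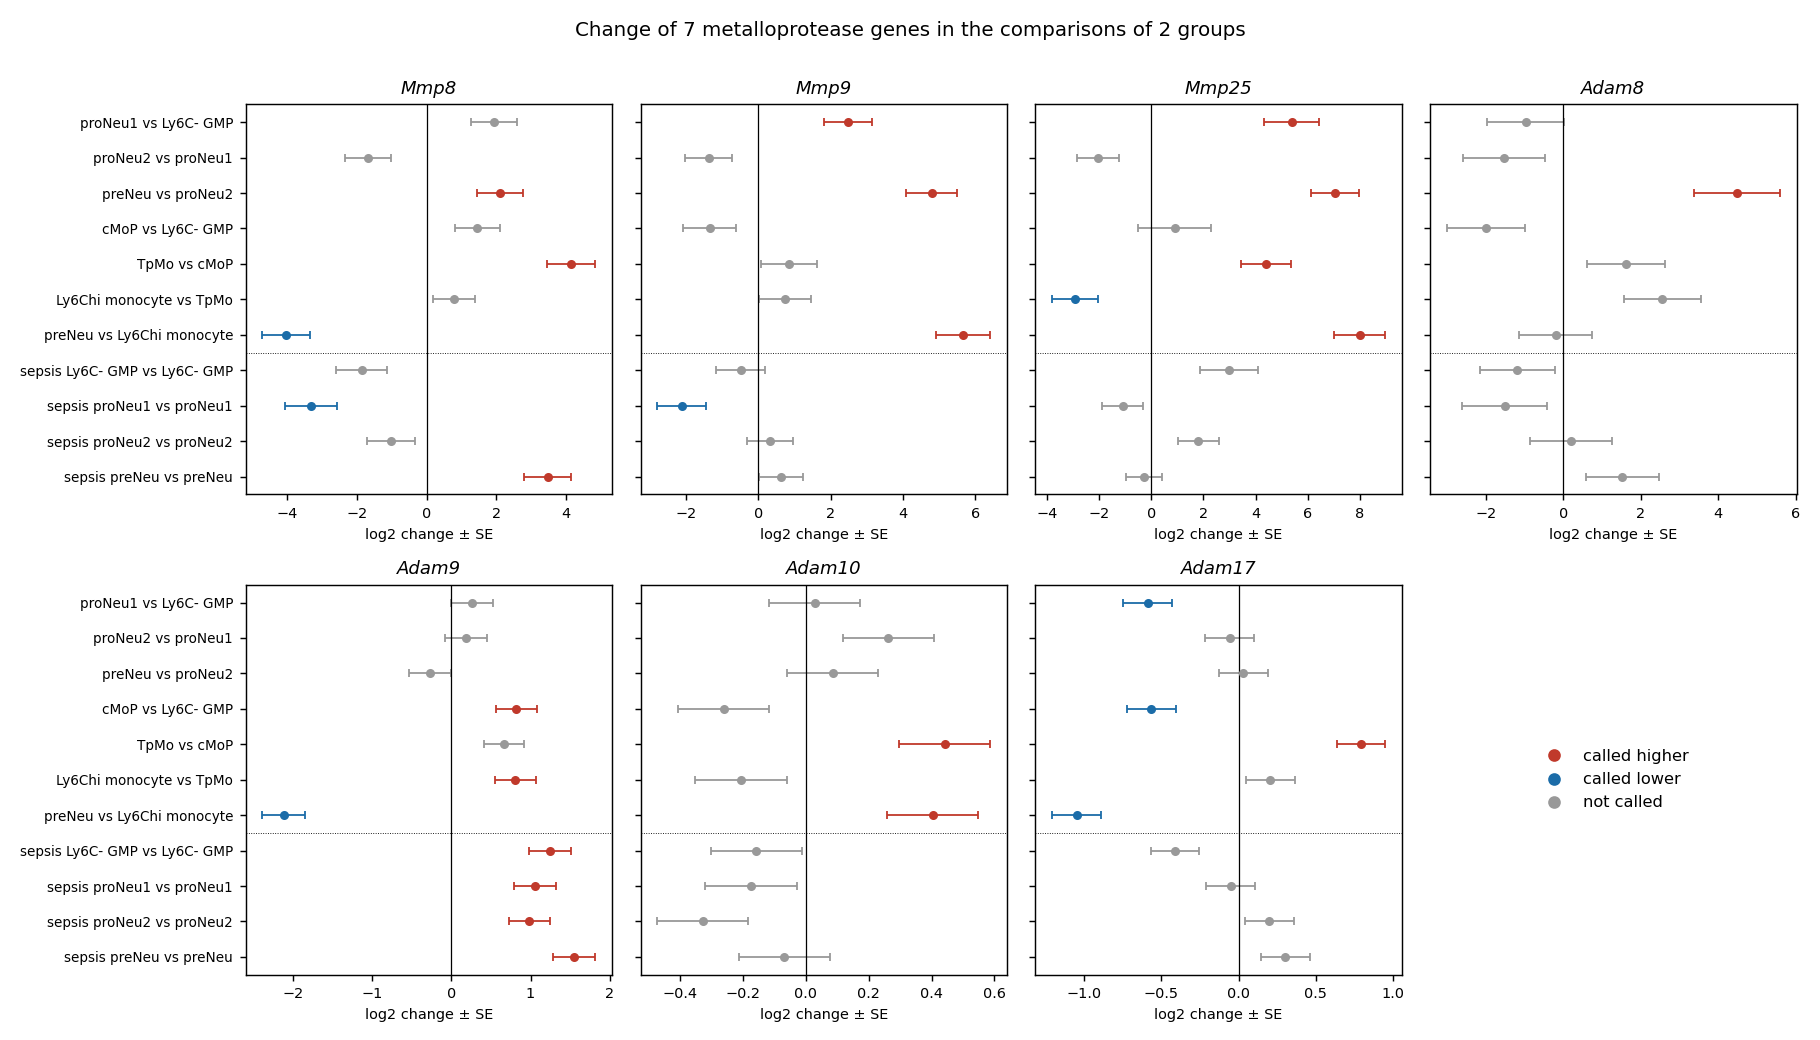
Log2 changes (points) with standard errors (bars) from edgeR for Mmp8, Mmp9, Mmp25, Adam8, Adam9, Adam10 and Adam17, in the stage comparisons and in sepsis against control for each population; red (higher) and blue (lower) points passed an adjusted p of 0.05 and grey points did not. Adam9 lies right of 0 in all 4 sepsis comparisons, and Mmp8 lies left of 0 in sepsis proNeu1 at -3.32 and right of 0 in sepsis preNeu at 3.47.

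Mmp8 had 224, 490.3 and 176 CPM in sepsis preNeu, against 33.1, 21.2 and 21.4 CPM in control preNeu. Every sepsis library lay above every control library. The log2 change was 3.47 ± 0.67 (adjusted p = 0.000655), and it was called in 12 of 12 alternatives, between 2.92 and 3.77. Earlier on the path the gene was not higher. It had 2.63, 1.25 and 1.20 CPM in sepsis Ly6C- GMP, against 6.46, 2.79 and 11.1 CPM in control, and 3.02, 4.03 and 3.06 CPM in sepsis proNeu2, against 15.7, 3.90 and 1.08 CPM in control. The ranges were separate in Ly6C- GMP, with a log2 change of -1.87 ± 0.73 (adjusted p = 0.0763) that was not called. DESeq2 called Mmp8 lower there (adjusted p = 0.0400), as did edgeR's fit without the 5 shallow libraries (adjusted p = 0.0478). In proNeu1 it fell to 1.24, 3.92 and 0.951 CPM in sepsis, against 56.3, 11.3 and 8.26 CPM in control, with a log2 change of -3.32 ± 0.75 (adjusted p = 0.00251). That change was -2.07 without control proNeu1 replicate 1 (adjusted p = 0.0475), -4.42 without sepsis proNeu1 replicate 2, and -1.89 and not called without the 5 shallow libraries (adjusted p = 0.132). The 4 sepsis effects on Mmp8 differed from each other (adjusted p = 0.000238), and this test passed in 30 of 30 alternatives.

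Markers of other cells and stages also differed in sepsis preNeu. The summed level of 7 monocyte markers was 1025 to 1089 CPM in sepsis preNeu and 548.9 to 1290.0 CPM in control preNeu, where Ly6Chi monocytes had 6286 to 7485 CPM. Within that list, the receptor gene Csf1r was at 64.3, 104 and 58.9 CPM in sepsis preNeu, against 4.94, 7.23 and 28.3 CPM in control preNeu, and at 1323 CPM or more in Ly6Chi monocytes. The chemokine receptor gene Ccr2 was at 126, 144 and 87.9 CPM in sepsis preNeu, against 2.98, 3.66 and 12.7 CPM in control preNeu, and at 2197 CPM or more in Ly6Chi monocytes. The 8 mature neutrophil markers summed to 1189 to 1523 CPM in sepsis preNeu and 675.1 to 757.9 CPM in control preNeu, with Il1r2 at 604.5 ± 193 CPM in sepsis and 94.5 ± 2.98 CPM in control. The 5 progenitor markers summed to 32.4 to 38.4 CPM in sepsis preNeu and 176.1 to 270.9 CPM in control preNeu. Of the neutrophil genes, Ly6g was at 9.16, 8.67 and 7.21 CPM in sepsis preNeu, against 54.2, 88.2 and 56.7 CPM in control preNeu. Cxcr2, a chemokine receptor of mature neutrophils, was at 177, 219 and 186 CPM in sepsis preNeu, against 68.8, 107 and 87.3 CPM in control preNeu. The part of these markers in the Mmp8 result was not tested.

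Mmp9 showed no such difference in preNeu, with 202, 286 and 155 CPM in sepsis and 162, 125 and 109.8 CPM in control. These ranges overlapped, and the log2 change was 0.62 ± 0.60 (adjusted p = 0.582). In proNeu1 it had 0.933, 4.81 and 3.61 CPM in sepsis, against 31.0, 11.4 and 6.75 CPM in control, with no overlap. The log2 change there was -2.12 ± 0.67 (adjusted p = 0.0295). The call was lost without control proNeu1 replicate 1 (-1.36, adjusted p = 0.215), sepsis proNeu1 replicate 1 (-1.79, adjusted p = 0.12), sepsis proNeu1 replicate 3 (adjusted p = 0.0887) or the 5 shallow libraries (-1.03, adjusted p = 0.358). In the remaining populations Mmp9 stayed low, with 1.03, 3.29 and 1.70 CPM in sepsis Ly6C- GMP and 9.20, 7.72 and 3.76 CPM in sepsis proNeu2. The test of a difference between the 4 sepsis effects gave an adjusted p of 0.179 for Mmp9. In the same proNeu1 libraries the summed specific granule markers were at 673.8 to 1074 CPM in sepsis and 2875 to 5589 CPM in control. The 8 B lineage markers summed to 103.7 to 318.6 CPM in sepsis and 3627 to 6661 CPM in control. The mature neutrophil sums overlapped, at 409.0 to 527.5 CPM in sepsis and 427.5 to 511.5 CPM in control. The part of these markers in the Mmp8 and Mmp9 results was not tested.

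**Figure D4:**
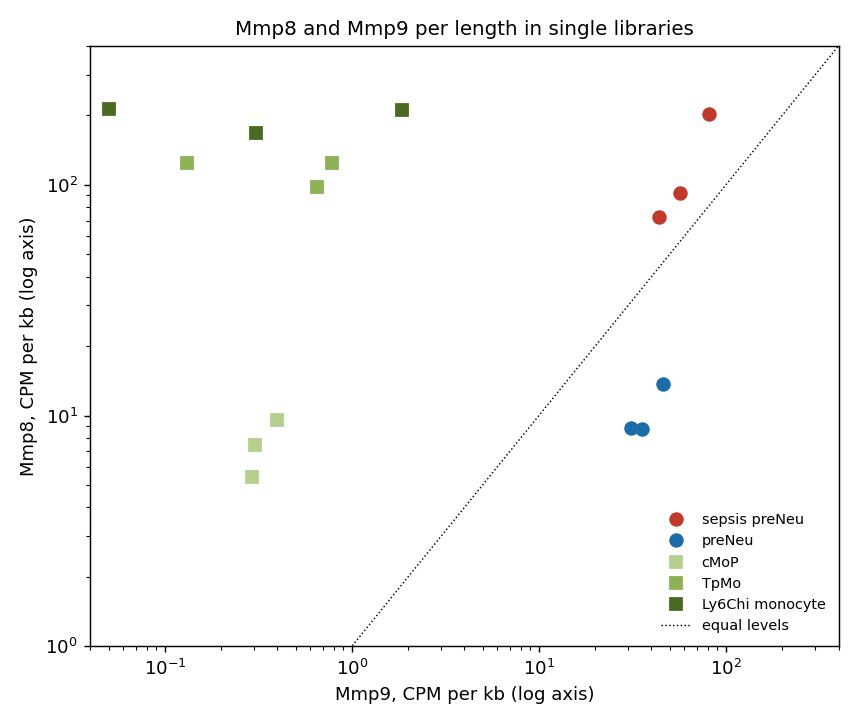
Mmp8 (vertical axis) against Mmp9 (horizontal axis), both in CPM per kb on log axes, 1 point per library of sepsis preNeu, control preNeu, cMoP, TpMo and Ly6Chi monocytes, with the dotted line at equal levels; the Ly6Chi monocyte library with 0 Mmp9 counts is drawn at 0.05. The 3 sepsis preNeu libraries lie above the line and the 3 control preNeu libraries below it, while TpMo and Ly6Chi monocyte libraries lie high on Mmp8 and low on Mmp9.

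The balance of both granule proteases was compared after their values had been seen, so it is a description. Per kilobase, the ratio of Mmp8 to Mmp9 was 1.61, 2.50 and 1.65 in sepsis preNeu and 0.298, 0.247 and 0.284 in control preNeu. Mmp8 was the more abundant of the pair in all 3 sepsis preNeu libraries and the less abundant in all 3 control libraries. In cMoP the ratio was 24.5, 24.2 and 18.5, and in TpMo it was 158, 948.5 and 150.5, where Mmp9 was near 0. In sepsis preNeu Mmp8 reached 122 ± 69.8 CPM per kb, against 60.6 ± 18.7 for Mmp9 and 51.3 ± 6.19 for Adam10 (SD, n = 3).

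Mmp25 and Adam8 were not called in any sepsis comparison. Mmp25 had 168, 147 and 139 CPM in sepsis preNeu, against 225, 188 and 106 CPM in control preNeu. In proNeu2 it had 4.00, 7.26 and 4.80 CPM in sepsis, against 1.81, 1.65 and 1.18 CPM in control, with separate ranges and a log2 change of 1.80 ± 0.79 (adjusted p = 0.124). In Ly6C- GMP it had 1.43, 2.42 and 0.142 CPM in sepsis, against 0, 0.409 and 0.0903 CPM in control, which DESeq2 called (adjusted p = 0.019), as did the fit without sepsis Ly6C- GMP replicate 3 (adjusted p = 0.0306). In proNeu1 it had 1.24, 5.85 and 1.43 CPM in sepsis, against 17.4, 1.75 and 4.15 CPM in control. Adam8 had 65.0, 88.7 and 68.7 CPM in sepsis preNeu, against 31.2, 24.4 and 17.0 CPM in control preNeu. Those ranges were also separate, but the log2 change of 1.52 ± 0.95 had an adjusted p of 0.351. The mean sepsis effect on Mmp25 was called only without proNeu1 replicate 1 (adjusted p = 0.0282) or without the 5 shallow libraries (adjusted p = 0.0368). In the earlier sepsis populations Adam8 was at 0.115 to 8.10 CPM, within or near the range of its controls. Fits of only the libraries compared called the Mmp25 difference in proNeu2 and the Adam8 difference in preNeu (adjusted p = 0.00813 for Adam8).

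Adam9 rose in each sepsis population. It had 39.5, 44.3 and 43.8 CPM in sepsis Ly6C- GMP, against 18.5, 19.0 and 21.5 CPM in control, a log2 change of 1.24 ± 0.26 (adjusted p = 0.000995). It had 52.9, 43.1 and 34.6 CPM in sepsis proNeu1, against 37.8, 17.5 and 11.4 CPM in control, a log2 change of 1.06 ± 0.26 (adjusted p = 0.0058). It had 45.6, 43.7 and 44.5 CPM in sepsis proNeu2, against 19.6, 24.2 and 24.8 CPM in control, a log2 change of 0.98 ± 0.26 (adjusted p = 0.00812). Its level was 49.0, 55.8 and 46.0 CPM in sepsis preNeu, against 18.6, 13.0 and 17.8 CPM in control, a log2 change of 1.55 ± 0.27 (adjusted p = 0.000191). The ranges overlapped in proNeu1 and were separate in the other 3 populations. The mean of the 4 effects was 1.21 ± 0.13 (adjusted p = 2.09e-08), called in 30 of 30 alternatives between 1.13 and 1.34. Its SE and p treat the 4 populations as independent, although they may come from the same mice. A difference between the 4 effects was not detected (adjusted p = 0.735). The proNeu1 call was lost in the fit of those libraries alone (adjusted p = 0.0573). In Ly6C- GMP the eosinophil, basophil and mast cell markers summed to 2626 to 5177 CPM in sepsis and 13250.0 to 20080.0 CPM in control. Dendritic cell markers summed to 29.4 to 44.3 CPM in sepsis and 2534 to 3657 CPM in control. B lineage markers summed to 43.0 to 86.4 CPM in sepsis and 911.8 to 1150.0 CPM in control. Progenitor markers summed to 513.3 to 659.7 CPM in sepsis and 1110.0 to 1427.0 CPM in control. Specific granule markers summed to 298.0 to 493.5 CPM in sepsis and 551.0 to 680.1 CPM in control. The sums of mature neutrophil markers overlapped, at 325.6 to 354.6 CPM in sepsis and 223.9 to 330.4 CPM in control. The part of these markers in the Ly6C- GMP results was not tested.

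The sheddases changed little in sepsis. Adam10 had 201, 252 and 199.8 CPM in sepsis Ly6C- GMP, 207, 218 and 208 CPM in sepsis proNeu1, 254.8, 197 and 200.3 CPM in sepsis proNeu2 and 285, 246 and 225 CPM in sepsis preNeu. Control preNeu had 293, 232 and 231 CPM, and only in proNeu1 did sepsis and control ranges not overlap. Its mean sepsis effect was -0.18 ± 0.07 (adjusted p = 0.0488), and this call was lost in 18 of 30 alternatives. Adam17 had 134, 111 and 107 CPM in sepsis Ly6C- GMP, against 210.2, 144 and 159.7 CPM in control, with separate ranges and a log2 change of -0.41 ± 0.16 (adjusted p = 0.0689). It was called there by DESeq2 and without Ly6C- GMP replicate 2 (adjusted p = 0.0393) or sepsis Ly6C- GMP replicate 1 (adjusted p = 0.029). It had 121, 102 and 93.0 CPM in sepsis preNeu, against 90.6, 76.6 and 77.8 CPM in control, with separate ranges, and was not called there. In sepsis proNeu1 (104, 81.8 and 104 CPM) and sepsis proNeu2 (96.8, 108 and 111 CPM) its range overlapped that of control. Mmp14 and Timp2 stayed near the detection limit, at no more than 0.576 CPM and 3.22 CPM in any sepsis library.

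By level over all 11 groups, the order of Mmp8 was Ly6Chi monocyte, sepsis preNeu, TpMo, proNeu1, preNeu, cMoP, proNeu2, Ly6C- GMP, sepsis proNeu2, sepsis proNeu1 and sepsis Ly6C- GMP. The only neighbours in that order with separate ranges were TpMo and proNeu1. Mmp9 and Mmp25 had their break below the preNeu groups of both conditions. Adam8 had breaks between sepsis preNeu and Ly6Chi monocytes and between preNeu and Ly6C- GMP. Adam9 had them below Ly6Chi monocytes, below TpMo and below cMoP, and Adam17 below TpMo, after Ly6Chi monocytes and Ly6C- GMP.

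Other metalloproteases and their partners were counted in lists. Of 19 other MMP genes 7 passed the filter, of 30 other ADAM genes 11, of 24 ADAMTS genes 10, and of 7 inhibitors 2. At the step to preNeu, the other MMPs had 1 rise and 1 fall among those tested, the other ADAMs 1 rise and 0 falls, the ADAMTS genes 1 rise and 1 fall, and the inhibitors 1 rise and 0 falls, where 13.1% of all genes rose and 14.7% fell. The MMP that fell was Mmp19, a secreted MMP, with 7.16 ± 3.69 CPM in preNeu and 23.5 ± 7.54 CPM in proNeu2 and a log2 change of -1.57 ± 0.32 (adjusted p = 0.000305). The ADAMTS gene that fell was Adamts6, at 0.0294 ± 0.0509 CPM in preNeu and 0.929 ± 1.01 CPM in proNeu2 (adjusted p = 0.0278), with overlapping ranges. The inhibitor was Reck, a membrane-anchored inhibitor of MMPs. It averaged 79.0 ± 23.7 CPM in preNeu and 22.8 ± 9.45 CPM in proNeu2, a log2 change of 2.01 ± 0.58 (adjusted p = 0.0093), and it had 0 counts in all 3 Ly6Chi monocyte libraries. Reck also rose in sepsis Ly6C- GMP (1.72, adjusted p = 0.0386) and sepsis proNeu1 (1.77, adjusted p = 0.0395).

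Adam15, a membrane protease of the same family, was the ADAM outside the 9 with calls in all 4 sepsis comparisons. It averaged 122 ± 18.3 CPM in sepsis preNeu and 59.4 ± 6.66 CPM in control preNeu, a log2 change of 0.97 ± 0.15 (adjusted p = 3.75e-05). Its mean sepsis effect was 1.07 ± 0.07 (adjusted p = 4.22e-12), beside 1.21 for Adam9. Like Adam9 it was lower in preNeu than in Ly6Chi monocytes, with 59.4 ± 6.66 CPM in preNeu and 269 ± 35.5 CPM in Ly6Chi monocytes. In cMoP against Ly6C- GMP it rose by 2.03 ± 0.15 (adjusted p = 6.15e-11). Among ADAMTS genes, Adamts10 fell in sepsis Ly6C- GMP, proNeu2 and preNeu, with log2 changes of -1.05, -1.28 and -1.28.

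Partners of Adam10 and Adam17 were counted at each step. These genes encode tetraspanins that carry Adam10 and iRhom proteins that carry Adam17 to the cell surface, and 8 of 9 listed passed the filter. In proNeu1 against Ly6C- GMP, 1 rose and 0 fell, where 3.59% of all genes rose and 2.45% fell. In proNeu2 against proNeu1, 0 were called, where 1.57% of all genes rose and 1.48% fell. Against proNeu2, preNeu showed 5 rises and 0 falls, with a median log2 change of 1.20, where all genes had a median of 0, 13.1% rose and 14.7% fell. In cMoP against Ly6C- GMP, 3 rose and 0 fell, with a median of 0.90, where 9.22% of all genes rose. In TpMo against cMoP, 4 rose and 0 fell, with a median of 0.35, where 9.52% of all genes rose. In Ly6Chi monocytes against TpMo, 1 rose and 0 fell, where 7.59% of all genes rose. Between the ends of the paths, preNeu against Ly6Chi monocyte, 2 were higher and 2 lower, where 21.0% of all genes were higher and 18.9% lower. With sepsis, 4 rose in Ly6C- GMP (median 0.81) and 4 in proNeu1 (median 0.75), where 10.3% and 8.3% of all genes rose. In sepsis proNeu2 3 rose, with a median of -0.02, and in sepsis preNeu 0 did, with a median of 0.06, where 9.45% and 7.57% of all genes rose. None fell in these 4 comparisons. For the mean of the 4 sepsis effects, 4 were higher and 1 lower, where 19.6% of all genes were higher and 17.5% lower.

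Rhbdf2, which encodes the iRhom of myeloid cells, had the largest rise of the list in the 3 sepsis comparisons with a rise. In preNeu against proNeu2 the largest was the tetraspanin gene Tspan15, at 2.46 ± 1.48 CPM in preNeu and 0 counts in proNeu2 (adjusted p = 0.0449), and in TpMo against cMoP it was Tspan17, at 12.1 ± 3.96 CPM in TpMo and 1.90 ± 0.352 CPM in cMoP (2.86, adjusted p = 0.0316). Rhbdf2 came next in both. Rhbdf2 averaged 34.8 ± 6.05 CPM in sepsis Ly6C- GMP and 8.27 ± 2.96 CPM in control, a log2 change of 2.20 ± 0.26 (adjusted p = 5.97e-07). In preNeu against proNeu2 it rose by 1.72 ± 0.25 (adjusted p = 5.82e-06), and its sepsis effects differed between populations (adjusted p = 0.00323). Frmd8, which stabilises iRhoms and was named after its values were seen, rose by 1.20 ± 0.16 in preNeu against proNeu2 (adjusted p = 9.76e-07). The tetraspanin gene Tspan14 rose by 1.15 in sepsis proNeu2 (adjusted p = 6.77e-05), and Tspan5 rose by 1.27 in sepsis Ly6C- GMP (adjusted p = 0.00365) and by 1.07 in sepsis proNeu1 (adjusted p = 0.0156). Of 5 proprotein convertases that passed the filter, which cut the inhibitory domains of such proteases, 2 rose and 2 fell in preNeu against proNeu2, where 13.1% and 14.7% of all genes did, and the rises were Pcsk7 (1.23, adjusted p = 0.00175) and Furin (0.88, adjusted p = 0.00137).

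Of 20 listed myeloid substrates of Adam10 and Adam17, 19 passed the filter. Against proNeu2, preNeu showed 8 rises and 0 falls among them, with a median log2 change of 0.60, where 13.1% of all genes rose and 14.7% fell. The largest rises were Tnf, at 17.5 ± 4.55 CPM in preNeu and 1.08 ± 0.611 CPM in proNeu2 (4.21, adjusted p = 5.1e-06), and the chemokine gene Cxcl16 (4.15, adjusted p = 0.022). Cxcl16 was low in both, at 1.555 ± 0.410 CPM in preNeu and 0.0988 ± 0.0982 CPM in proNeu2. In preNeu against Ly6Chi monocyte, 1 was higher and 9 were lower, where 21.0% of all genes were higher and 18.9% lower. In sepsis preNeu, 5 rose and 2 fell, where 7.57% of all genes rose and 4.21% fell. The largest rises there were the lipid receptor gene Trem2, with 6.16 ± 1.83 CPM in sepsis and 0.211 ± 0.138 CPM in control (5.06, adjusted p = 0.00582), and Csf1r (2.64, adjusted p = 0.000389). The falls were the scavenger receptor gene Cd163 (-3.08, adjusted p = 0.0441) and the adhesion gene Cd44 (-0.67, adjusted p = 0.00178). Cd163 was low in both conditions, at 0.281 ± 0.256 CPM in sepsis preNeu and 2.25 ± 2.21 CPM in control preNeu.

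The rise of Mmp8 in sepsis preNeu was not shared by most granule genes. All 18 listed granule and secretory vesicle genes passed the filter, and 16 rose and 0 fell in preNeu against proNeu2, with a median log2 change of 3.59, where 13.1% of all genes rose and 14.7% fell. The largest were the formyl peptide receptor gene Fpr2 (7.19) and the lipocalin gene Lcn2 (6.67). In TpMo against cMoP, 14 rose and 0 fell, with a median of 1.74, where 9.52% of all genes rose and 8.56% fell. In sepsis preNeu, 1 rose and 6 fell, with a median of -0.41, where 7.57% of all genes rose and 4.21% fell. The rise was the haptoglobin gene Hp (0.55), and the largest falls were the cathelicidin gene Camp, with 1345 ± 177 CPM in sepsis and 4651 ± 739 CPM in control (-1.86, adjusted p = 0.00126), and Ltf (-1.78, adjusted p = 0.00538). In sepsis proNeu1, 3 rose and 9 fell, where 8.3% and 7.3% of all genes did, and the largest falls were Ltf (-4.76) and Fpr2 (-3.95), while Lcn2 rose by 2.36. Fpr2 was low in both conditions, at 0.0987 ± 0.171 CPM in sepsis proNeu1 and 2.31 ± 0.488 CPM in control proNeu1.

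The genes whose mean log2 CPM over the 11 groups ran most like each of the 9 were found by Pearson correlation among 8418 genes. These are descriptions over 11 points that share libraries and depth. For Mmp9 they were Ceacam10 (r = 0.984), Retnlg (r = 0.981) and Ifnlr1 (r = 0.977), and for Mmp25 they were Acsl1 (r = 0.960), Ceacam10 (r = 0.946) and Ifnlr1 (r = 0.943). Mmp8 had a different set, Cyfip1 (r = 0.960), Pirb (r = 0.953) and Rin2 (r = 0.948). Adam8 ran most like the formyl peptide receptor genes Fpr1 (r = 0.975) and Fpr2 (r = 0.939), with Shkbp1 (r = 0.942) between them. Adam9 ran most like the vault protein gene Mvp (r = 0.964), Klhl2 (r = 0.959) and Irf2bpl (r = 0.955). For Adam17 they were Kcne3 (r = 0.978), Rnase6 (r = 0.945) and Ckb (r = 0.943), and for Adam10 they were Gsk3b (r = 0.928), Taf12 (r = 0.881) and Clasp1 (r = 0.868). Timp2 ran most like Rsad2 (r = 0.895), Parp12 (r = 0.888) and Gngt2 (r = 0.880). Mmp14 ran most like the immunoglobulin genes Igkv12-89 (r = 0.974), Ighv1-5 (r = 0.972) and Igha (r = 0.957), all highest in Ly6C- GMP. Levels of Mmp14 and Timp2 were near 0 in most groups, which limits the correlations of both. Among the 9 themselves, the correlation was 0.944 for Mmp9 with Mmp25, 0.755 for Mmp8 with Adam8 and 0.240 for Mmp8 with Mmp9.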

How the data were processed

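RNA of 33 sorted samples was prepared with PicoPure columns, SMARTSeq v2 and Nextera XT and sequenced as read pairs on a HiSeq, per the labels' protocols. The deposited table holds the authors' raw counts per gene, made with STAR on GRCm38 and featureCounts, per the submitters' processing notes. Versions, strand setting and pair handling are not given in the sources used here. Overlapping and antisense genes are therefore uncertain. Even numbers made up 76.2% of the counts between 1 and 10, a pattern that counting each mate would give. CPM per kb used the deposited gene length column.

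All libraries entered 1 edgeR 4.0.16 fit in R 4.3.3 (limma 3.58.1), with TMM scaling, filterByExpr, robust quasi-likelihood tests and Benjamini-Hochberg adjustment over 18198 genes. The fit was tested on simulated data. Alternatives were DESeq2 1.42.0, RLE factors, other filters, only the compared libraries, no library below 10 megacounts, and each library left out. Nothing beyond the submitters' term biological replicates says how animals were pooled, or whether different populations came from the same mice. The fit treated all libraries as independent, which the tests over 4 populations rely on.

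The 9 genes and all lists were chosen with earlier results of these data known. For each other list and comparison, the called genes with the 2 largest rises and the 2 largest falls could be named. Marker genes set beside a result were picked after their values were seen.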

Additional observations from a re-analysis of the deposited data

Results flagged for a closer look

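The sepsis effect on Mmp8 differed between the 4 populations by a test of the difference itself (edgeR's quasi-likelihood F test on the 3 differences between the 4 effects, adjusted p = 0.000238). The log2 change in sepsis against control was 3.47 ± 0.67 in preNeu and -3.32 ± 0.75 in proNeu1. All 3 sepsis libraries lay above all 3 control libraries in preNeu and below them in proNeu1. Of the 9 genes, Mmp8 was the one for which this test passed.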

How the results depend on the processing

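Of 31 called changes of the 9 genes, 18 were called in every alternative run, and 0 changed direction when called. The number of the 9 genes called depended on the setting. Not all smaller differences are listed, such as the loss of Mmp9 in proNeu1 against Ly6C- GMP with no filter (adjusted p = 0.0799). The number called moved as follows. In Ly6Chi monocytes against TpMo it was 2, and 4 with only the libraries compared. In sepsis Ly6C- GMP it was 1, 4 with DESeq2, 2 with a stricter filter, 4 without the shallow libraries and 2 with only the libraries compared. In sepsis proNeu1 it was 3, and 1 without the shallow libraries. In sepsis proNeu2 it was 1, and 2 with only the libraries compared, and for the mean sepsis effect it was 2, and 1 with no filter. When each library was left out in turn, the number ran from 1 to 2 in proNeu1 against Ly6C- GMP, 0 to 1 in proNeu2 against proNeu1, 0 to 2 in cMoP against Ly6C- GMP and 0 to 1 in Ly6Chi monocytes against TpMo. It ran from 1 to 2 in sepsis Ly6C- GMP, 2 to 3 in sepsis proNeu1 and 1 to 3 for the mean sepsis effect. The causes were not tested. Over all genes, 555 were called in proNeu2 against proNeu1 (1126 by DESeq2, 353 when no other libraries were fitted and 226 to 334 without certain single libraries) and 1100.0 in proNeu1 against Ly6C- GMP (711 without proNeu1 replicate 3). In sepsis proNeu1 2839 were called (1745 without the shallow libraries and 1880.0 without sepsis proNeu1 replicate 3), and in sepsis proNeu2 3097 (2060.0 without proNeu2 replicate 2). In sepsis preNeu 2145 were called (1219 with only the libraries compared and 1226 without preNeu replicate 1), and for the difference between sepsis effects 1154 (2085 with DESeq2 and 734 without preNeu replicate 2).

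No paired analysis was possible because the labels give no replicate numbers. Groups of 3 and 5 shallow libraries limit precision for genes at a few CPM. These were Mmp14 and Timp2 in most groups, and also Mmp8, Mmp9, Mmp25 and Adam8 in the groups where they were low.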
